A study of Mus musculus with 8 samples.

Results

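The 35 genes described here are immediate-early and stress response genes, chosen by gene name from the 53801 genes of the deposited count table. They comprise the Fos, Jun and Egr transcription factors, Atf3 and Maff, the Ier genes with Csrnp1, and members of the Klf, Zfp36, Dusp, Btg and Gadd45 families, with Myc, Socs3 and Mcl1. No measured value entered the choice of names, but the set was drawn up with earlier results of these data known. RNA was measured in stromal cells sorted from small intestine as CD45-CD31-, and so without surface proteins of blood cells (CD45) and of endothelium (CD31). The cells came from LTβRYFP mice, whose reporter is named after the lymphotoxin beta receptor, and were separated by flow sorting into a YFP+ and a YFP- fraction of 4 libraries each. All 8 libraries thus share the mouse line, the tissue and the CD45-CD31- gate, and YFP is what separates the fractions. The sources used here give neither the age and sex of the mice, nor the driver of YFP, nor how many animals stand behind a library.

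The labels conflict on the fractions. The sample titles put all 8 libraries in the fraction opposite to the one given by the description, the genotype and the count column's name. The groups below follow the description, and if the titles were correct each direction would be the reverse. The receptor's own RNA, Ltbr, gave no check, at a log2 fold change of 0.12 and an edgeR adjusted p of 0.396. Total counts ran from 23404630 to 29829232 in the YFP+ libraries and from 23272858 to 28688906 in the YFP- libraries. Libraries carry replicate numbers 1 to 4 in both fractions, and same-numbered libraries deviated together across genes. They were therefore compared as 4 pairs, with the number as a block in edgeR's quasi-likelihood test. No label states that each library was a separate animal. The p-values with the block reflect the spread of the within-pair difference over the pairs, and those without it the spread among libraries of a fraction. Either spread may be technical.

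Immediate-early genes are transcribed within minutes of a stimulus, from signalling proteins already present in the cell and without new protein synthesis. Growth factors, cytokines, stress and mechanical injury reach them through MAP kinases, serum response factor with its ternary complex partners, and CREB. Their products are transcription factors that carry the response on, and inhibitors such as dual-specificity phosphatases, RNA decay proteins and SOCS proteins that end it. Enzymatic release of cells from a tissue is itself known to switch on many of these genes.

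The early-response genes were, as a group, modestly lower in YFP+ than in YFP- stromal cells. Of the 34 that could be tested, 23 fell in YFP+ (67.6%), 0 were higher, and 11 did not pass the adjusted p threshold of 0.05. Over all 16354 tested genes, 7.85% fell and 3.65% rose, and among the 8996 genes whose mean reached 10 CPM (counts scaled to the library total), as it did for each of the 34, 10.2% fell and 5.94% rose. The median log2 fold change of YFP+ over YFP- was -0.31 over the 34 genes, against 0.01 over all tested genes and 0.03 over genes of at least 10 CPM. The 23 genes that passed were between 12.9% and 44.0% lower in YFP+, with a median of 24.1%, and Myc and Egr3 were the 2 that fell by more than 1.5-fold. When the replicate number was left out of the fit, 9 of the 34 fell (Fos, Fosb, Egr1, Egr3, Atf3, Ier2, Klf4, Zfp36 and Myc) and 0 rose. In that fit 3.34% of all tested genes fell and 0.917% rose, and 3.90% of those of at least 10 CPM fell. In 29 of the 34 genes (85.3%) the YFP+ library was lower in 4 of 4 pairs, which held for 16.2% of all tested genes. For 11 of the 34 (32.4%) every YFP+ library lay below every YFP- library, against 5.86% of all tested genes. The authors' deposited table gives 22 of the 34 as lower and 0 as higher at an adjusted p under 0.05, against 6.59% lower over its 18748 genes with an adjusted p. In bulk samples, fewer cells of a type and less RNA per cell cannot be told apart. Markers of enteric glia summed to 11.9 to 17.1 CPM in YFP+ libraries and 129 to 211 CPM in YFP- libraries, and mitochondrially encoded genes took 4.57% ± 0.321 of counts in YFP+ and 6.45% ± 0.907 in YFP- (means ± SD of 4 libraries each). The part of these differences in the lower early-response levels was not tested.

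**Figure D1:**
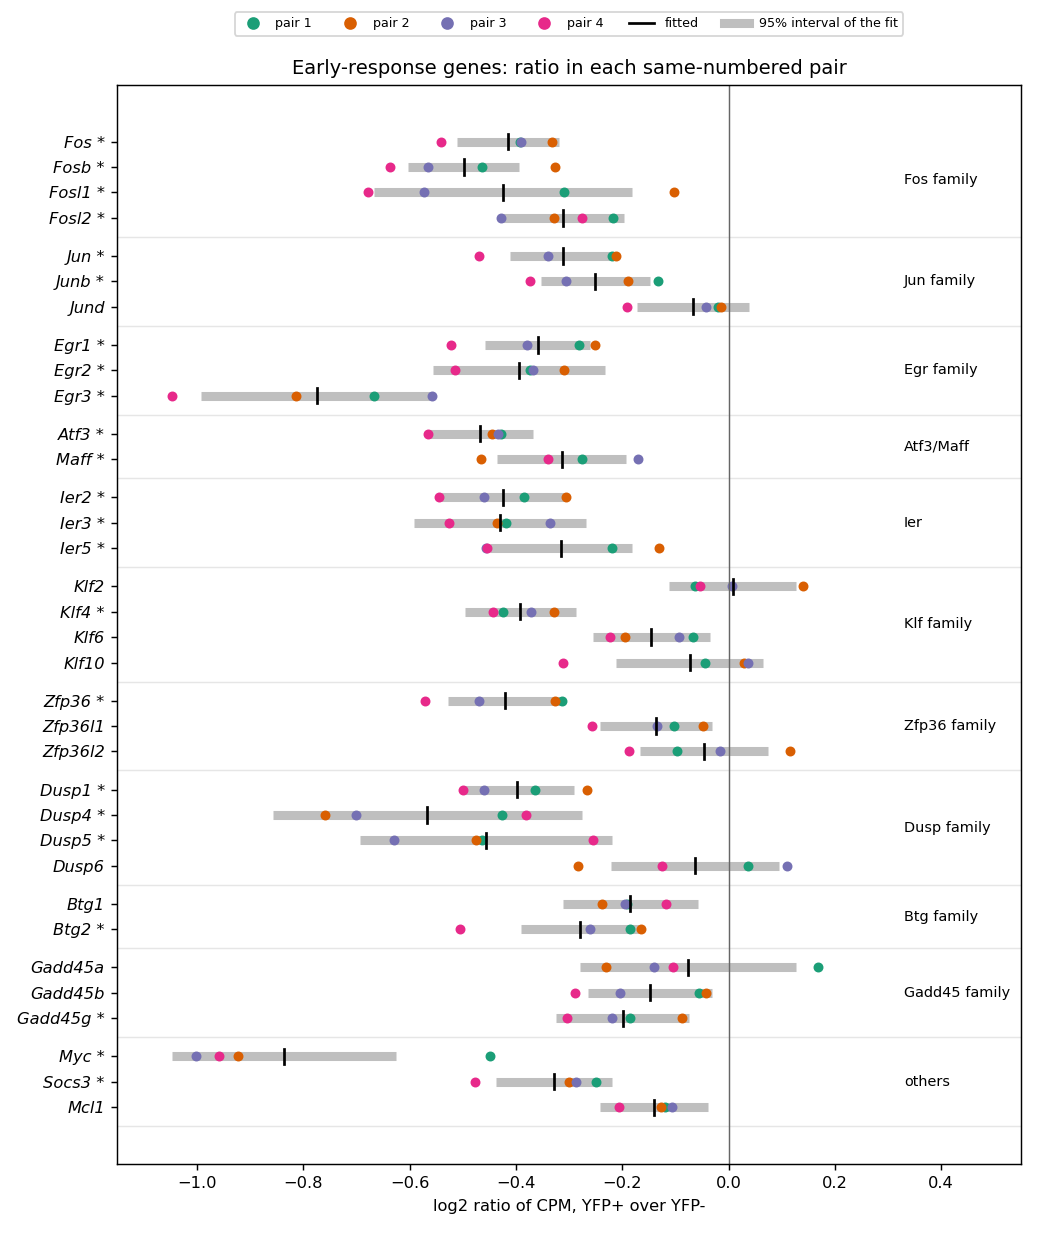
Log2 ratio of CPM in YFP+ over YFP- for the 34 tested early-response genes, grouped by family; coloured points are the 4 same-numbered pairs, black ticks the edgeR fold change, grey bars its 95% interval, and stars mark an adjusted p under 0.05 with the replicate block. Nearly all points lie left of 0, and fitted values run from -0.84 for Myc to 0.01 for Klf2.

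The summed level of the 35 genes was 11718, 11856, 11637 and 12058 CPM in YFP+ libraries 1 to 4, against 14146, 14020, 14681 and 16645 CPM in YFP- libraries 1 to 4. The YFP+ sums lay close together (SD 184 CPM), and each was below the lowest YFP- sum. The YFP- sums were more spread (SD 1216 CPM), with library 4 the highest. Pair 4 also gave the largest fall for 24 of the 34 genes. The median log2 ratio over the genes was -0.23, -0.26, -0.34 and -0.41 in pairs 1 to 4, and 32, 31, 31 and 34 genes were below 0. Without pair 4, 21 of the 34 genes passed the test as lower and the median was -0.29.

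**Figure D2:**
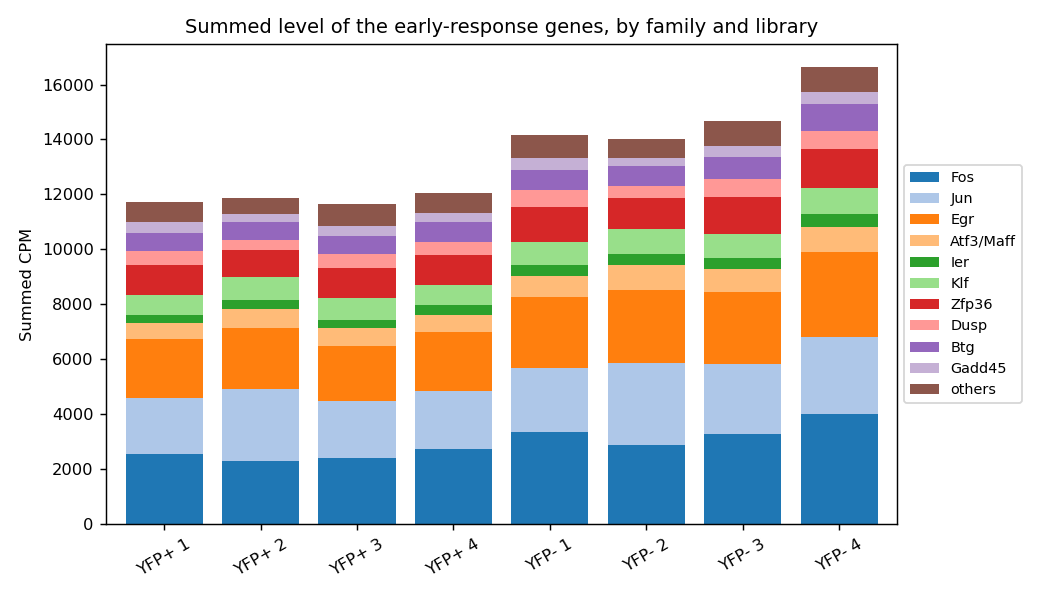
Summed CPM of the early-response genes in each library, stacked by family, with the 4 YFP+ libraries left of the 4 YFP- libraries. The YFP+ stacks end between 11637 and 12058 CPM and the YFP- stacks between 14020 and 16645 CPM.

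Fos, Fosb, Fosl1 and Fosl2 encode the Fos partners of the AP-1 transcription factor, and all 4 fell. Fos (chromosome 12, 85473890 to 85477273, plus strand, GRCm38) had 1430.0, 1144, 1376 and 1439 CPM in YFP+ libraries 1 to 4, against 1878, 1442, 1805 and 2093 CPM in YFP- libraries 1 to 4. Library 2 was the lowest of each fraction, and the highest YFP+ value lay just under the lowest YFP- value. The log2 fold change was -0.41 ± 0.05 (SE, as for each fold change below), with an edgeR adjusted p of 4.15e-07, and 0.0408 without the block. Fosb, a close relative of Fos (chromosome 7, 19302696 to 19310051, minus strand), had 923, 994, 833 and 1055 CPM in YFP+ and 1272, 1246, 1232 and 1641 CPM in YFP-. The fractions did not overlap, and YFP- library 4 stood well above the other 3. Its log2 fold change was -0.50 ± 0.05 (edgeR's adjusted p = 9.11e-08, and 0.0096 without the block). Fosl2, which encodes Fra-2, averaged 175 ± 22.5 CPM in YFP+ and 217 ± 27.6 CPM in YFP- (means ± SD of 4 libraries each), with overlapping fractions and a log2 fold change of -0.31 ± 0.06 (edgeR's adjusted p = 2.62e-04, and 0.13 without the block). Fosl1, which encodes Fra-1, had far fewer reads, with 16.9 ± 1.79 CPM in YFP+ and 23.1 ± 6.42 CPM in YFP-. Its log2 fold change of -0.42 ± 0.12 (edgeR's adjusted p = 0.017) lost the call without the block (0.192) and also without pair 3 or pair 4, where the adjusted p reached 0.169. Ccdc85b lies on the opposite strand across 57.2% of the exonic bases of Fosl1.

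Of the Jun partners of AP-1, Jun and Junb fell and Jund did not pass. Jun (chromosome 4, 95049034 to 95052222, minus strand) had 1058, 1625, 1079.5 and 1172 CPM in YFP+ and 1233, 1882, 1366 and 1624 CPM in YFP-. Library 2 was the highest of each fraction and the fractions overlapped, yet YFP+ was the lower member of every pair. The log2 fold change of Jun was -0.31 ± 0.05 (edgeR's adjusted p = 5.59e-05), and without the block the adjusted p was 0.42. Junb had 632, 614, 629.7 and 619 CPM in YFP+ and 692, 701, 779 and 802 CPM in YFP-, with no overlap and a log2 fold change of -0.25 ± 0.05 (edgeR's adjusted p = 8.87e-04, and 0.0888 without the block). Jund, which is known for high expression in resting cells and weak induction, had 369, 384, 375 and 322 CPM in YFP+ and 374, 388, 386 and 368 CPM in YFP-. Its log2 fold change was -0.07 ± 0.05, with a 95% interval of -0.17 to 0.04 and an edgeR adjusted p of 0.484.

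All 3 Egr genes fell. These zinc finger factors are classical targets of serum response factor. Egr1 had the most reads of the 34 genes, with 2068, 2173, 1944 and 2089.9 CPM in YFP+ and 2515, 2587, 2528 and 3003 CPM in YFP-. The fractions did not overlap, and YFP- library 4 was set apart from the other 3. This gave a log2 fold change of -0.36 ± 0.05 (edgeR's adjusted p = 6.05e-06, and 0.0197 without the block). Egr3 (chromosome 14, 70077203 to 70082614, plus strand) had 21.2, 14.8, 19.7 and 19.8 CPM in YFP+ and 33.6, 26.2, 29.1 and 40.98 CPM in YFP-. Again no YFP+ library reached the lowest YFP- library, and the drop was the second deepest of the set, with a log2 fold change of -0.77 ± 0.11 (edgeR's adjusted p = 7.89e-06, and 0.00468 without the block). Egr2 had 46.97, 30.6, 42.5 and 44.9 CPM in YFP+ and 60.9, 37.9, 54.9 and 64.2 CPM in YFP-. Library 2 was low in both fractions, which overlapped, and the log2 fold change was -0.39 ± 0.08 (edgeR's adjusted p = 8.75e-04, and 0.285 without the block).

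Egr2 is shown here with Dusp5 because they are 2 of the 3 members whose promoter held a CArG box, the binding motif of serum response factor. Both sequences are the 100 bases named below, on the strand of the gene and upstream of its RefSeq start in GRCm38.p6, and capitals mark the matches.
Egr2, chr10:67537449-67537548, plus strand: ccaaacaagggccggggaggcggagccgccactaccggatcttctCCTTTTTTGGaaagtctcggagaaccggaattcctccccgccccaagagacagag
Dusp5, chr19:53529009-53529108, plus strand: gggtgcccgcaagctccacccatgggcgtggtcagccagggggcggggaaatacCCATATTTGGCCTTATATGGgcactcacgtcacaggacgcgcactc
The stretch of Dusp5 held 2 adjoining boxes and that of Egr2 held 1. RefSeq gives Egr2 further starts downstream, before which another box lay that is not shown. RefSeq's promoter table held 27 of the 35 genes, and motifs were searched on both strands over the 250 bases before each start. A motif further upstream, one in a looser form, or one in a gene without an entry was not looked for. The CArG box was found in 3 of 27 members (11.1%; Dusp5, Egr2 and Zfp36), against 1.62% of the 27025 genes in the table. All 3 fell in YFP+, as did 17 of the 27. A match is a description of the letters and was not tested for binding in these cells.

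**Figure D3:**
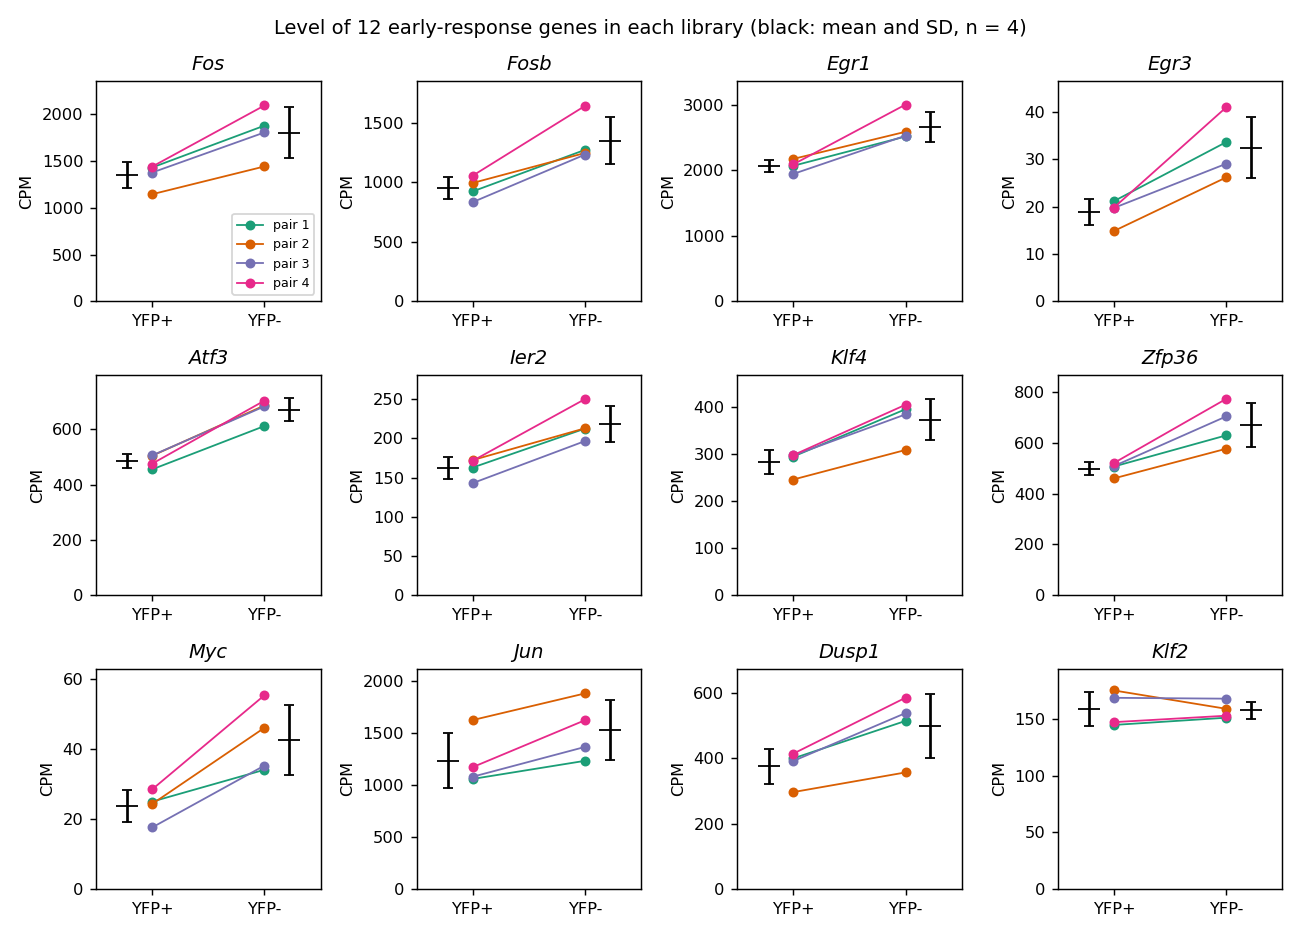
CPM of 12 early-response genes in each library, with YFP+ left of YFP-; coloured lines join same-numbered libraries, black bars give the mean and SD of 4 libraries, and each axis starts at 0. In 11 of the 12 panels all 4 lines rise towards YFP-, while the lines of Klf2 cross.

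Atf3 and Maff, which encode stress-induced basic leucine zipper factors, both fell. Atf3 (chromosome 1, 191170296 to 191218039, minus strand) had 455, 504, 505 and 475 CPM in YFP+ and 612, 686, 683 and 703 CPM in YFP-. The fractions were well apart and each pair gave nearly the same ratio, from -0.43 to -0.57 on the log2 scale. The log2 fold change was -0.47 ± 0.05 (edgeR's adjusted p = 1.17e-07, and 0.00193 without the block). Maff, a small Maf protein, averaged 151 ± 14.2 CPM in YFP+ and 189 ± 30.9 CPM in YFP- (means ± SD of 4 libraries each). Its fractions overlapped, and its log2 fold change was -0.31 ± 0.06 (edgeR's adjusted p = 4.64e-04, and 0.131 without the block). The promoters of Maff, Btg2 and Dusp1 are shown because each held TGACGTCA, the full cAMP response element bound by CREB and ATF proteins, in capitals below. As before, each is 100 bases on the gene's strand upstream of the RefSeq start in GRCm38.p6.
Maff, chr15:79347420-79347519, plus strand: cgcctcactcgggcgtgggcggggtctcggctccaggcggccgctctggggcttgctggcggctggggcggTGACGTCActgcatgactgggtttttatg
Btg2, chr1:134079268-134079367, minus strand: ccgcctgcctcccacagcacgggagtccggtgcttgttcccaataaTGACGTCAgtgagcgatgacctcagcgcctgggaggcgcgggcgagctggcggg
Dusp1, chr17:26508562-26508661, minus strand: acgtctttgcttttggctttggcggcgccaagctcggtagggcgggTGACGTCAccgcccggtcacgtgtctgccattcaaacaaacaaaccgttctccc
The element lay at positions -29 to -22 in Maff, -166 to -159 in Btg2 and -143 to -136 in Dusp1, counted back from the start. It was present in 3 of 27 members (11.1%), against 1.77% of all genes in the table, and all 3 fell in YFP+. The Egr motif GCGNGGGCG was found in 9 of 27 members (33.3%; Btg2, Fosb, Fosl2, Gadd45b, Klf2, Klf4, Maff, Socs3 and Zfp36), against 5.33% of genes, and 7 of these 9 fell. The AP-1 motif TGAGTCA was found in 1 member, Csrnp1, against 5.16% of genes, and TATAAA in 5 of 27 (18.5%), against 14.3%, none of them among the 3 with a CArG box. These members' promoter windows had a median GC content of 64.0%, against 52.4% over all windows, a difference in base composition that the motif shares carry with them.

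The 3 tested Ier genes fell. Ier2, a nuclear early-response protein (chromosome 8, 84661331 to 84662852, minus strand), had 163, 172, 143 and 171 CPM in YFP+ and 212, 213, 197 and 250.1 CPM in YFP-. The fractions did not overlap, and the log2 fold change was -0.42 ± 0.06 (edgeR's adjusted p = 6.05e-06, and 0.0117 without the block). Ier3, known for protection against cell death, averaged 40.3 ± 5.57 CPM in YFP+ and 54.3 ± 8.32 CPM in YFP- (means ± SD of 4 libraries each), with a log2 fold change of -0.43 ± 0.08 (edgeR's adjusted p = 3.39e-04, and 0.0667 without the block). Ier5 averaged 111 ± 19 CPM in YFP+ and 138 ± 24 CPM in YFP-, with a log2 fold change of -0.32 ± 0.06 (edgeR's adjusted p = 0.00119, and 0.308 without the block). Ier3 and Ier5 overlapped between the fractions, with YFP+ the lower member of every pair.

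Csrnp1, a nuclear protein induced by axin, is listed at 0 in all 8 libraries, and this 0 cannot be read as a level. The gene (chromosome 9, 119971163 to 119984658, minus strand) lies wholly within the span of Cx3cr1 on the same strand (119901616 to 120069879). Of 475 protein-coding genes that lie wholly within a gene on the same strand, 469 (98.7%) are listed at 0. Among protein-coding genes nested on the opposite strand only, 19.6% are listed at 0, and among those with no overlap 21.4% are. The deposited counts thus behave as if taken over whole gene spans and by strand, so that intronic reads may add to the values of the other genes. None of the 35 genes, Csrnp1 included, shares exonic bases with a gene on its own strand, and 11 share such bases with a gene on the opposite strand. Overlap of whole spans was counted over protein-coding genes together and not read out for each of the other members. A loss of their reads through it was therefore not tested.

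In the Klf family of zinc finger factors, 1 of 4 genes fell. Klf4, a factor of growth arrest and differentiation (chromosome 4, 55527143 to 55532466, minus strand), had 295, 246, 297 and 298 CPM in YFP+ and 396, 309, 385 and 405 CPM in YFP-. Library 2 was the lowest of each fraction, and the fractions did not overlap. The fitted log2 fold change was -0.39 ± 0.05 (edgeR's adjusted p = 3.58e-06, and 0.0293 without the block). Klf2, known as a shear stress factor of endothelium, had 145, 176, 169 and 148 CPM in YFP+ and 152, 159, 168 and 153 CPM in YFP-. Its pairs went both ways, and its log2 fold change of 0.01 ± 0.06 (95% interval -0.11 to 0.13) was the one value above 0 among the 34 genes. Klf6 had a log2 fold change of -0.14 ± 0.05 (edgeR's adjusted p = 0.0831), and Klf10, a target of TGF-beta signalling, one of -0.07 ± 0.07 (edgeR's adjusted p = 0.575). Within each pair, the log2 ratio of Klf4 was below that of Klf2 by 0.36, 0.47, 0.38 and 0.39.

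The Zfp36 family encodes proteins that bind AU-rich elements in messenger RNAs and start their decay, and 1 of its 3 genes fell. Zfp36, which encodes tristetraprolin (chromosome 7, 28376784 to 28380253, minus strand), had 506, 459.7, 508 and 520.3 CPM in YFP+ and 629, 577, 704 and 773 CPM in YFP-. The YFP+ libraries were close together and all lay under the lowest YFP- library. The log2 fold change was -0.42 ± 0.05 (edgeR's adjusted p = 1.69e-06, and 0.0138 without the block). Zfp36l1 averaged 372 ± 32.8 CPM in YFP+ and 409.9 ± 44.3 CPM in YFP- (means ± SD of 4 libraries each; log2 fold change -0.14 ± 0.05, edgeR's adjusted p = 0.0917). Zfp36l2 averaged 196 ± 18.4 CPM in YFP+ and 202 ± 12.4 CPM in YFP-, and its 95% interval ran from -0.17 to 0.07 on the log2 scale. Gm26669 overlaps 55.9% of the exonic bases of Zfp36l1 on the other strand.

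The sequence that these proteins are known to bind, the nonamer TTATTTATT, was looked up in the 3′ UTRs of the annotation, since many early-response RNAs are known to carry it. It was found in 8 of the 35 genes (22.9%), against 7.3% of 13560 tested genes with a 3′ UTR. The members' 3′ UTRs had a median length of 1186 bases, against 979 bases. Among the 23 genes that fell, 5 carried it (Fos, Fosl2, Maff, Zfp36 and Dusp1), and among the 11 that did not pass, 2 did (Zfp36l1 and Zfp36l2), Csrnp1 being the eighth. Dusp1 and Maff held 2 each. The sites of Fos and Zfp36 and the first of the 2 sites of Dusp1 are shown as examples from 1 transcription factor and 2 feedback inhibitors that fell, with the nonamer in capitals, on the gene's strand in GRCm38.
Fos, chr12:85477103-85477131, plus strand: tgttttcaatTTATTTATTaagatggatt
Zfp36, chr7:28376951-28376979, minus strand: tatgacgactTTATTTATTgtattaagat
Dusp1, chr17:26506159-26506187, minus strand: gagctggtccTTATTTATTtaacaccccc
Over all tested genes, members included, 15.7% of the 985 with the nonamer and 8.34% of the 12575 without it were lower in YFP+. Higher were 3.45% with it and 4.3% without it. The median log2 fold changes lay close together, at -0.022 with the nonamer and 0.014 without it. These values are descriptions, with neither 3′ UTR length nor read level matched between genes with and without the nonamer. Their relation to RNA decay in these cells was not tested.

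Of the dual-specificity phosphatases, which switch off MAP kinases, Dusp1, Dusp4 and Dusp5 fell and Dusp6 did not pass. Dusp1 (chromosome 17, 26505590 to 26562128, minus strand) had 399, 296, 391 and 414 CPM in YFP+ and 514, 356, 538 and 585 CPM in YFP-. YFP- library 2 was below 3 of the YFP+ libraries, yet YFP+ was the lower of each pair. The log2 fold change was -0.40 ± 0.05 (edgeR's adjusted p = 3.76e-06), and without the block the adjusted p was 0.19. Dusp4 had the fewest reads of the 34 genes, with a lowest count of 170, and had 11.99, 6.99, 9.79 and 10.3 CPM in YFP+ and 16.1, 11.9, 15.98 and 13.4 CPM in YFP-. The fractions just overlapped. The log2 fold change was -0.57 ± 0.14 (edgeR's adjusted p = 0.00741, and 0.0984 without the block). Dusp5 averaged 15.6 ± 4.44 CPM in YFP+ and 21.3 ± 4.95 CPM in YFP- (means ± SD of 4 libraries each), with a log2 fold change of -0.46 ± 0.11 (edgeR's adjusted p = 0.00821, and 0.383 without the block). Without pair 3, the adjusted p rose to 0.0701 for Dusp4 and 0.0893 for Dusp5. Dusp6, which acts on ERK in the cytoplasm, averaged 57.7 ± 13.1 CPM in YFP+ and 59.4 ± 7.26 CPM in YFP-, with pairs on both sides of 0 and an edgeR adjusted p of 0.694.

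Among the growth-restraining genes, Btg2 and Gadd45g fell and Btg1, Gadd45a and Gadd45b did not pass. Btg2, an antiproliferative protein, had 570.0, 586, 593 and 605 CPM in YFP+ and 648, 657, 709.9 and 858 CPM in YFP-. The fractions did not overlap, and YFP- library 4 was the highest. Its log2 fold change was -0.28 ± 0.05 (edgeR's adjusted p = 6.68e-04, and 0.104 without the block). Btg1, its relative, was lower in 4 of 4 pairs with a log2 fold change of -0.18 ± 0.06 (edgeR's adjusted p = 0.0514). Gadd45g, one of the Gadd45 proteins that link stress to p38 and JNK kinases, averaged 102 ± 11.3 CPM in YFP+ and 118 ± 17.2 CPM in YFP- (means ± SD of 4 libraries each). Its log2 fold change of -0.20 ± 0.06 was the smallest of the 23 that passed (edgeR's adjusted p = 0.0316, and 0.414 without the block). Leaving out pair 1, 3 or 4, or using DESeq2, put Gadd45g above the threshold, at an adjusted p of up to 0.196. Gadd45b had a log2 fold change of -0.15 ± 0.06 (edgeR's adjusted p = 0.0972) and Gadd45a one of -0.08 ± 0.10 (edgeR's adjusted p = 0.712).

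Of the remaining 3 genes, Myc and Socs3 fell and Mcl1 did not pass. Myc, the growth-promoting transcription factor (chromosome 15, 61985391 to 61990374, plus strand), had 24.99, 24.3, 17.6 and 28.5 CPM in YFP+ and 34.1, 46.1, 35.3 and 55.5 CPM in YFP-. The fractions did not overlap, and the log2 ratio was nearest to 0 in pair 1, at -0.45, followed by pair 2, at -0.92. With a log2 fold change of -0.84 ± 0.10, the drop of Myc was the deepest of the 34 (edgeR's adjusted p = 1.50e-06, and 0.0152 without the block). Socs3, the feedback inhibitor of cytokine signalling through STAT3, averaged 286 ± 39.1 CPM in YFP+ and 360.4 ± 54.4 CPM in YFP- (means ± SD of 4 libraries each), with a log2 fold change of -0.33 ± 0.05 (edgeR's adjusted p = 7.71e-05, and 0.17 without the block). Mcl1, a survival protein of the Bcl2 family, averaged 389 ± 52.4 CPM in YFP+ and 429 ± 59.3 CPM in YFP-, with a log2 fold change of -0.14 ± 0.05 (edgeR's adjusted p = 0.0679).

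Counted by family, all tested genes fell in the Fos (4), Egr (3), Atf3 and Maff (2) and Ier (3) groups, 3 of 4 in the Dusp and 2 of 3 in the Jun family. In the Klf, Zfp36, Btg and Gadd45 families 1 gene each fell, of 4, 3, 2 and 3. Some families held genes on both sides of the threshold. There, the called gene with the highest mean CPM in YFP- was set against each gene that did not pass. This gave 10 within-pair differences, chosen from the calls. The calls came from the same libraries, so the choice itself favoured negative values. Signs and p-values therefore only describe these 10 differences. In 7 of them the difference had the same sign in 4 of 4 pairs, which gives the smallest p that 4 pairs allow (exact two-sided sign-flip permutation test, p = 0.125, adjusted p = 0.179). None could therefore pass a threshold of 0.05. Their mean log2 differences were -0.40 for Klf4 minus Klf2, -0.25 for Klf4 minus Klf6 and -0.32 for Klf4 minus Klf10. They were -0.28 for Zfp36 minus Zfp36l1, -0.37 for Zfp36 minus Zfp36l2, -0.24 for Jun minus Jund and -0.05 for Gadd45g minus Gadd45b. The other 3 had mixed signs, with -0.33 for Dusp1 minus Dusp6, -0.12 for Gadd45g minus Gadd45a and -0.09 for Btg2 minus Btg1. Of the 11 genes that did not pass, 10 had a negative fitted value and 5 an unadjusted p under 0.05.

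On a scale of CPM per kilobase of annotated exons, to which intronic reads may add, the genes spanned a wide range of levels in both fractions. Fos was at the top, with 573 ± 58.7 in YFP+ and 767 ± 115 in YFP- (means ± SD of 4 libraries each). Egr1 followed with 461 ± 21.1 in YFP+ and 593 ± 51.7 in YFP-, and Jun with 387 ± 83.2 in YFP+ and 479 ± 90 in YFP-. Egr1 and Jun overlapped in their ranges within YFP+ and within YFP-. Among the 34 tested genes, the lowest levels per kilobase were those of Dusp4, with 3.56 ± 0.757 in YFP+ and 5.24 ± 0.754 in YFP-, Egr3 and Dusp5. The order of the top 5 (Fos, Egr1, Jun, Junb and Atf3) and of the bottom 3 was the same in both fractions. Most of these genes are short: 28 of the 35 span under 10000 bases, against 27.7% of tested genes, and their median span was 4984 bases, against 22980 bases.

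Other genes of the same responses were read from lists, to set the members in their pathway. The list of 23 signalling genes that act upstream comprised serum response factor and its partners, Raf, MAP kinases, and CREB and ATF proteins. Of these, 1 fell (4.35%, against 7.85% of all tested genes) and 0 rose, with a median log2 fold change of -0.07. Mapk9, which encodes JNK2, was the one, with a mean of 88.5 ± 16.9 CPM in YFP+ and 118 ± 31.1 CPM in YFP- (means ± SD of 4 libraries each; log2 fold change -0.40 ± 0.06, edgeR's adjusted p = 5.17e-05, and 0.344 without the block). That count was 5 with a filter of 1 CPM and 3 with limma-voom. Kinase activity, through which these genes are known to act, was not measured.

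Of 43 other early-response genes tested, 20 fell and 2 rose (46.5% and 4.65%), with a median log2 fold change of -0.20. Without the block 8 fell and 1 rose, and 1 rose without pair 2, 3 or 4. Nfkbiz, a nuclear regulator of NF-kB, had 163, 185, 153 and 183 CPM in YFP+ and 251, 288, 254 and 294 CPM in YFP-, with no overlap and a log2 fold change of -0.67 ± 0.05 (edgeR's adjusted p = 1.79e-09). Hbegf, a growth factor ligand of the EGF receptor, had 8.04, 6.87, 8.68 and 7.49 CPM in YFP+ and 17.1, 15.7, 16.3 and 21.5 CPM in YFP-, again with no overlap, at -1.18 ± 0.14 (edgeR's adjusted p = 1.41e-06). Log2 fold changes were -0.59 ± 0.06 for the cytokine gene Il6 (edgeR's adjusted p = 1.42e-07, and 0.0684 without the block), -0.51 ± 0.06 for the repressor Bhlhe40 and -0.41 ± 0.05 for the orphan nuclear receptor Nr4a1. Spry1, an inhibitor of receptor tyrosine kinase signalling, rose, with 68.4 ± 10.5 CPM in YFP+ and 50.2 ± 6.33 CPM in YFP- (means ± SD of 4 libraries each; log2 fold change 0.44 ± 0.07, edgeR's adjusted p = 7.18e-05, and 0.0468 without the block). Rgs2, a regulator of G protein signalling, also rose, by 0.39 (edgeR's adjusted p = 0.0231), which was lost without the block (0.461).

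Genes that end NF-kB signalling, or encode its subunits, fell in 7 of 10 cases with 0 higher and a median of -0.24. Tnfaip3, which encodes the deubiquitinase A20, averaged 281 ± 34.3 CPM in YFP+ and 392 ± 74 CPM in YFP- (means ± SD of 4 libraries each; log2 fold change -0.47 ± 0.05, edgeR's adjusted p = 8.01e-07). Nfkb1, a subunit gene, had -0.38 ± 0.05, and Birc3, an inhibitor of apoptosis, had -0.41 ± 0.06. Without the block 1 of the 10, Birc3, fell (edgeR's adjusted p = 0.00449), and without pair 4, 4 fell. Of the integrated stress response, in which cells cut back translation, 3 of 8 tested genes fell. These were Ppp1r15a (-0.18 ± 0.05), Ddit3 (-0.32 ± 0.10) and the sparsely counted Trib3 (0.383 ± 0.293 CPM in YFP+ and 1.63 ± 0.792 CPM in YFP-), and 0 fell without the block or without pair 1, and 1 without pair 3 or pair 4. Of 9 heat-shock genes, Hspa8 (-0.20 ± 0.05) and Dnajb1 (-0.40 ± 0.05) fell, with 0 falling without the block and 4 with limma-voom. Of 10 p53 target genes 1 fell, the cell cycle inhibitor Cdkn1a (-0.57 ± 0.09, edgeR's adjusted p = 3.11e-05). The median log2 fold change was -0.26 for the integrated stress response, -0.20 for heat-shock genes and -0.02 for p53 targets. With the block, 70% of the NF-kB genes, 37.5% of integrated stress response, 22.2% of heat-shock and 10% of p53 target genes fell. Over all tested genes 7.85% fell, and 3.34% without the block.

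**Figure D4:**
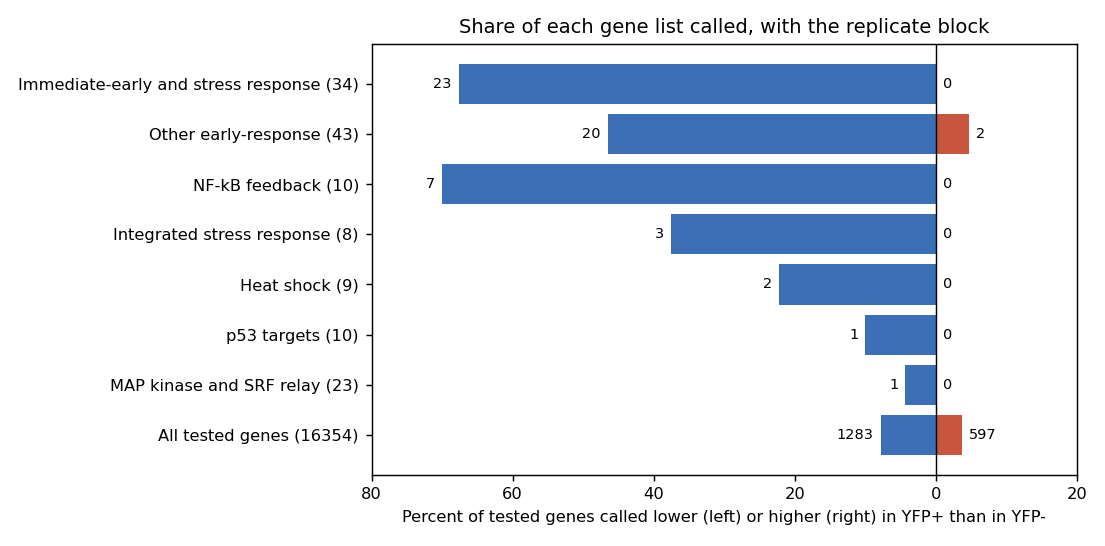
Percent of tested genes in each list that were lower (left of 0) or higher (right of 0) in YFP+ than in YFP-, by edgeR with the replicate block at an adjusted p under 0.05; numbers at the bars are gene counts and numbers in brackets the genes tested. The early-response genes (67.6%) and the NF-kB feedback genes (70.0%) stand to the left of all tested genes (7.85%), and the MAP kinase and SRF relay genes (4.35%) do not.

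Both fractions carried fibroblast RNA, and markers of other cell types differed between them. Pdgfra, a fibroblast receptor, averaged 1036 ± 128 CPM in YFP+ and 1055 ± 51.3 CPM in YFP- (means ± SD of 4 libraries each). Of 7 fibroblast markers 5 fell (71.4%), among them Col1a1 (-0.24) and Col3a1 (-0.23), with log2 fold changes no lower than -0.43. With the block, 67.6% of the early-response genes and 7.85% of all tested genes fell. The median log2 fold change was -0.24 over the fibroblast markers and -0.31 over the early-response genes. Without the block 2 of the 7 fell, with Col1a1 and Col3a1 at adjusted p-values of 0.192 and 0.178 in edgeR. Ptprc, the gene of CD45, averaged 2.29 ± 2.65 CPM in YFP+ and 2.38 ± 2.21 CPM in YFP-, and Pecam1, the gene of CD31, 4.66 ± 1.83 CPM in YFP+ and 7.46 ± 2.94 CPM in YFP-. Of 10 tested markers of enteric glia 8 fell, with a median log2 fold change of -3.58. Cdh19, a glial cadherin, averaged 1.71 ± 0.457 CPM in YFP+ and 46.8 ± 10.6 CPM in YFP-, and Sox2 of that list is at 0 in all 8. Of 12 epithelial markers 7 fell, with sums of 21.7 to 28.3 CPM in YFP+ and 43.8 to 92.7 CPM in YFP-. Of 5 tested endothelial markers 3 fell, with sums of 36.4 to 49.1 CPM in YFP+ and 55.8 to 87.4 CPM in YFP-. Without the block 1 of these 5 fell, Tek, and 5 of the 12 epithelial markers. None of 6 tested haematopoietic markers passed, with sums of 40.4 to 323 CPM in YFP+ and 74.9 to 278 CPM in YFP-. All 5 smooth muscle markers rose, with sums of 321 to 811 CPM in YFP+ and 167 to 437 CPM in YFP- and 0 rising without the block. Mural, interstitial cell, neuronal and mesothelial lists had 1, 0, 2 and 0 genes lower and 1, 1, 0 and 0 higher, of 4, 3, 3 and 1 tested. Without the block they had 1, 0, 1 and 0 lower and 1, 0, 0 and 0 higher. Of 16 tested mitochondrially encoded genes 9 fell, and 10 of the 37 in the table are listed at 0. The early-response genes took 1.21% ± 0.0209 of counts in YFP+ and 1.45% ± 0.101 in YFP-. The part of the fibroblast, epithelial, endothelial and smooth muscle differences in these levels was not tested either. With mitochondrial and ribosomal RNA genes removed before scaling, the same 23 of 34 genes fell.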

How the data were processed

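Sorted cells were lysed and their total RNA was turned into stranded libraries with a pico-input kit and read on Illumina NextSeq machines, per the labels' protocols. The submitters' processing notes name cutadapt 3.4, STAR 2.7.3a, featureCounts 2.0.1, DESeq2 and the build GRCm38 (mm10), with no strand setting given in the sources used. What the authors deposited is 1 table with whole-number, unnormalised counts for each gene and library. It also carries the authors' own log2 fold change between the fractions and its adjusted p-value. A further 8 normalised per-sample columns were not used.

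All genes were fitted together with edgeR 4.0.16 in R 4.3.3. Of 53801 genes, 23010 had no count and 16354 passed edgeR's expression filter. Scaling was by TMM, the test was the robust quasi-likelihood F test blocked on the replicate number, and p-values were adjusted by Benjamini-Hochberg over all tested genes. CPM used TMM-scaled totals, and within-pair log2 ratios a prior count of 2. An SE is the absolute log2 fold change over the square root of F. The procedure was also run on counts simulated with replicate effects and planted fold changes. Such counts could not test whether the use of the block was right.

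The members, gene lists, motifs and the use of the block were chosen with earlier results of these data known. All members are named, and from each pathway list those with the smallest p among the called ones in a direction (at most 3, or 5 for relay and other early-response genes). As a check of the pairing, residuals from the group means over 5200 genes were correlated. Libraries of equal number gave 0.60, 0.64, 0.38 and 0.57 and all others -0.42 to 0.05. What the numbers share is not stated in the labels. The deposited log2 fold changes equalled those of DESeq2 1.42.0 with the number as a term (largest difference 0.0005) and differed by a median of 0.049 from those without it. Within each fraction, no libraries were duplicates to within sampling noise. Libraries of different fractions were not compared in this way.

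Alternatives were the fit without the block, relative log expression and upper-quartile scaling, 2 other filters, DESeq2, limma-voom (limma 3.58.1), leaving out mitochondrial with ribosomal RNA genes, and leaving out each pair or, without the block, each library. Gene positions are 1-based, from GENCODE mouse release 21 on GRCm38. Promoter sequences are from RefSeq (GRCm38.p6) and 3′ UTR sites from GENCODE.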

Additional observations from a re-analysis of the deposited data

Results flagged for a closer look

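In 72 sets of 4 libraries (the 34 tested genes, their summed level and the total count, in each fraction), 6 had 1 library set apart from the other 3 by more than Dixon's 95% critical value for 4 values, where chance would give about 3.6 (1 in 20). Klf4 was low in YFP+ replicate 2, at 246 CPM. Fosb and Egr1 were high in YFP- replicate 4, at 1641 and 3003 CPM. Zfp36l1 and Gadd45g were low in YFP- replicate 2, at 344 and 92.2 CPM. The total count of YFP- replicate 4, at 28688906, was above those of the other 3 YFP- libraries. Without pair 4 the log2 fold changes of Fosb and Egr1 stayed below 0, at -0.45 and -0.30, and both passed the threshold in edgeR with the replicate block.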

How the results depend on the processing

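With the replicate block, the same 23 of 34 early-response genes fell under relative log expression or upper-quartile scaling, without a filter, with mitochondrial and ribosomal RNA genes removed, with limma-voom (which added Mcl1) and with a filter of 1 CPM (which added Btg1 and Mcl1). DESeq2 with the block lost Gadd45g and gave 22. Leaving out 1 pair gave 19 to 23, with Fosl1, Dusp4, Dusp5 and Gadd45g lost without pair 3, Fosl1 and Gadd45g without pair 4 and Gadd45g without pair 1. The median log2 fold change ran from -0.34 to -0.29 over these, and 0 of the 34 rose under any alternative, at an unadjusted p under 0.05 as well.

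Without the replicate block (the pairing), 9 early-response genes, 1 NF-kB feedback, 8 other early-response, 0 heat-shock, 0 integrated stress response and 0 relay genes were lower, and 1 other early-response gene was higher, with 547 genes lower and 150 higher over all. At an unadjusted p under 0.05, 20 early-response genes were lower in that fit. With the block, relay genes lower numbered 5 with the 1 CPM filter and 3 with limma-voom, and heat-shock genes lower 4 with limma-voom.

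Leaving out 1 pair with the block gave 851 to 1126 genes lower and 331 to 500 higher over all (851 and 331 without pair 3), 0 to 2 integrated stress response genes lower, 4 to 6 NF-kB feedback genes lower and 1 to 2 other early-response genes higher. Leaving out 1 library without the block gave 4 to 14 early-response genes lower (4 without YFP+ replicate 3 or YFP- replicate 4, and 14 without YFP- replicate 2), 5 to 10 other early-response genes lower with 0 to 1 higher, 1 to 2 NF-kB feedback genes, 0 to 1 integrated stress response genes, 0 to 1 p53 targets, 0 heat-shock and 0 relay genes lower, and 339 to 521 genes lower and 88 to 156 higher over all.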
